A study of Mus musculus with 12 samples.

Results

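Freshly sorted bone marrow stroma that expressed a green fluorescent reporter of Scf was compared with freshly sorted marrow cells that did not, in 6 of the 12 libraries of a mouse RNA sequencing study. The libraries were chosen by their titles, 3 labelled Scf-GFP positive (GFPpos) and 3 labelled Scf-GFP negative (GFPneg). All 6 came from the C57BL/6J strain, carried no transduced gene and were sorted from digested marrow as lacking CD45, Ter119 and CD31. CD45 is the common surface antigen of white blood cells, Ter119 an antigen of red cells and their later precursors, and CD31 an antigen of endothelium and platelets. The groups therefore differ by the reporter gate alone, as far as the labels say. The labels give neither the age of the mice nor how the reporter was built, nor whether replicate libraries are separate animals, so every p-value rests on the spread among these libraries and no more. The other 6 libraries of the study are cultured stroma and were not used in the fit.

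Scf, listed in the files as Kitl, is stem cell factor, the ligand of the receptor Kit on blood stem and progenitor cells. In the marrow it is made mainly by perivascular reticular cells that express the leptin receptor and high levels of the chemokine Cxcl12, and which can give rise to bone-forming and fat cells. Red cell precursors in the same marrow divide several times under erythropoietin while they build haemoglobin, driven by the transcription factors Gata1 and Klf1.

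Depth ran from 60507051 to 85353566 counts per library, and 13639 to 15461 genes were detected in each. The 10 most abundant genes took 4.33 to 4.65% of counts in GFPneg libraries and 20.4 to 24.4% in GFPpos libraries. Across genes, log2 CPM (counts scaled to library size with TMM factors) correlated at 0.976 to 0.984 among GFPneg libraries, at 0.914 to 0.941 among GFPpos libraries and at 0.547 to 0.666 between the groups. Replicates varied by a biological coefficient of variation of 26% (GFPneg) and 40.3% (GFPpos). Libraries also differed within a group: GFPneg replicate 1 held stromal transcripts that replicates 2 and 3 lacked, GFPneg replicate 2 held low levels of cartilage and megakaryocyte transcripts, and GFPpos replicates 2 and 3 held far more megakaryocyte transcripts than replicate 1. These differences are given with the results they touch.

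The gate was checked first, on the RNA of 3 genes it refers to. Kitl stood at 1.49, 0 and 0 CPM in GFPneg replicates 1 to 3 and 353, 317 and 515 CPM in GFPpos, and since the sort used its reporter this is a check of the labels and not a result. Ptprc, the CD45 gene, stood at 17.7, 11.5 and 14.6 CPM in GFPneg and 28.2, 12.7 and 3.196 CPM in GFPpos, and its groups overlapped (adjusted p = 0.9899). Pecam1, the CD31 gene, stood at 2.45, 0.907 and 0.341 CPM in GFPneg and 13.8, 10.99 and 9.44 CPM in GFPpos.

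In the fit of the 6 libraries, 5744 of 13890 genes tested were higher in GFPpos (41.4%) and 4246 were lower (30.6%), at an adjusted p under 0.05 in edgeR's quasi-likelihood test with Benjamini-Hochberg adjustment over all genes tested. Adjusted p-values and log2 fold changes with their SE below come from this fit unless another source is named. The median log2 fold change over all genes tested was 0.24. The directions differed in size. Of the genes higher in GFPpos, 4794 (83.5%) differed over 2-fold and 3253 (56.6%) over 8-fold, with a median log2 fold change of 3.90. Of the genes lower in GFPpos, 1668 (39.3%) differed over 2-fold and 39 (0.919%) over 8-fold, with a median of -0.88. Of those 39, 36 stood under 1 CPM in GFPneg, and the most abundant was Pkhd1l1 at 25.1 CPM.

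**Figure D1:**
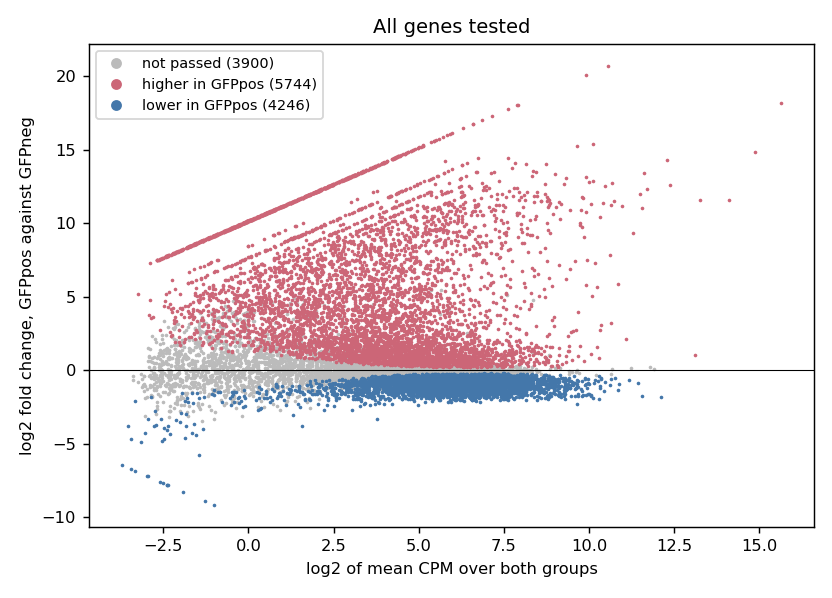
Each point is 1 of the 13890 genes tested, with the log2 of its mean CPM over both groups on the x axis and its log2 fold change, GFPpos against GFPneg, on the y axis. Genes higher in GFPpos (5744) spread to folds far beyond those of the lower genes (4246), and the straight upper edge is made of genes with 0 counts in every GFPneg library, whose fitted fold is set by the prior count.

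The same contrast was seen in presence and absence. With at most 3 counts in every library of 1 group and at least 5 CPM in every library of the other, 323 of the 17173 genes with a count (1.88%) were found in GFPpos only and 0 (0%) in GFPneg only. Of the 323 genes, 222 had 0 counts in all GFPneg libraries, the most abundant being Bglap at a mean of 2997 CPM in GFPpos. Without GFPneg replicate 1 the number found in GFPpos only was 557. At a minimum of 1 CPM the numbers were 634 and 0, and at 20 CPM 120 and 0.

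Every gene that was abundant in GFPneg was also read in GFPpos. Of the 2177 genes with a mean of at least 100 CPM in GFPneg, the lowest GFPpos level relative to the GFPneg mean was 0.267, 0.201 and 0.0754 in GFPpos replicates 1 to 3. Only 2 of these genes, both in replicate 3, stood under 0.1 of the GFPneg mean. In the opposite direction, 476 to 484 of the 2082 genes with at least 100 CPM in GFPpos stood under 0.1 of the GFPpos mean in each GFPneg library.

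The label stroma was then set against markers. The 17 bone marrow reticular cell genes tested were all higher in GFPpos, and their summed level lay between 45120.2 and 68538 CPM in GFPpos and between 18.95 and 85.9 CPM in GFPneg. Cxcl12, which draws blood stem cells to their niche and holds them there, stood at 37523, 27245 and 40798 CPM in GFPpos and 34.1, 0.0219 and 0.341 CPM in GFPneg. Its position on the mouse GRCm38.p6 assembly is chr6:117168535-117181368. Defining stromal markers were thus at or near 0 in GFPneg replicates 2 and 3, which goes against the name stromal cell that the labels give to this group, and it is called GFPneg here. In GFPneg replicate 1 the median member of the reticular list stood at 0.0968% of its GFPpos mean, against 6.21e-05% in replicate 2 and 0.000969% in replicate 3. Of the 397 list members higher in GFPpos, 46 had GFPneg counts in replicate 1 only, 17 in replicate 2 only and 7 in replicate 3 only. The fold of 130 of the 352 with any GFPneg count was over 1.5 times larger without replicate 1 (for Cxcl12, a log2 fold change of 17.55 against 11.58). Fewer cells of a type and less RNA per cell cannot be told apart in such bulk libraries.

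**Figure D2:**
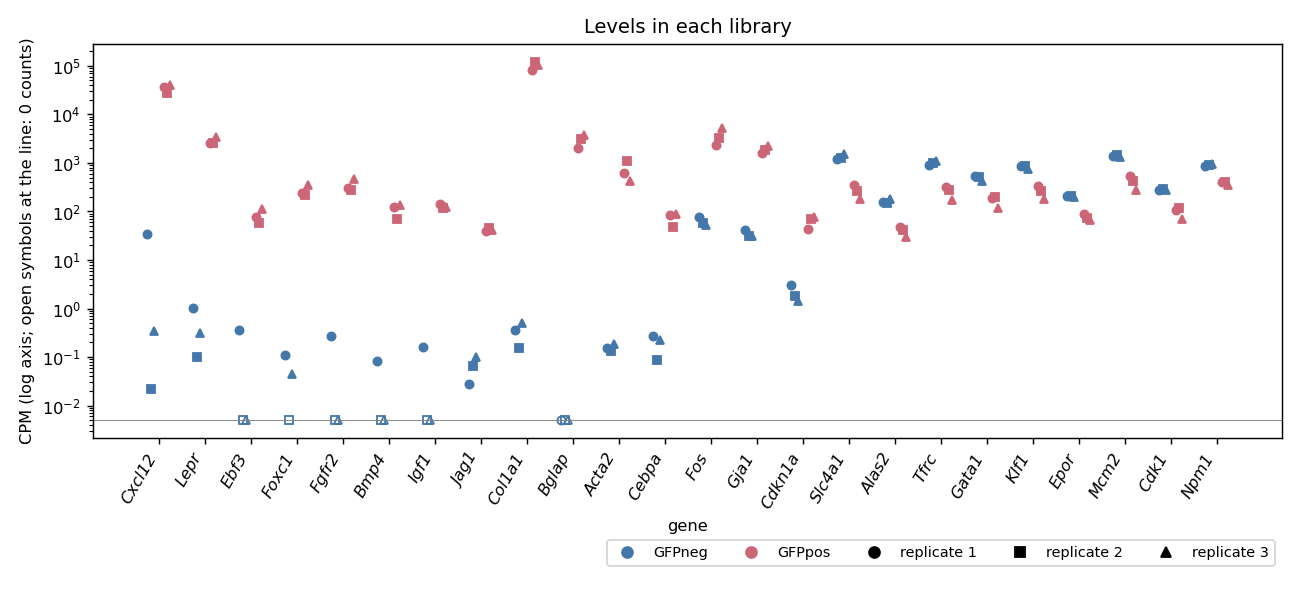
Level of 24 genes in each of the 6 libraries, in CPM on a log axis, with GFPneg in blue, GFPpos in red and replicate numbers as symbols; open symbols on the grey line stand for 0 counts. The genes from Cxcl12 to Cdkn1a lie higher in all GFPpos libraries, mostly against GFPneg levels under 1 CPM, while the genes from Slc4a1 to Npm1 lie lower in GFPpos but above 20 CPM in every library.

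Of 19 transcription factors of the stroma tested, 17 were higher in GFPpos and 0 lower, with a median log2 fold change of 11.05, or 9.14 with the 5 genes that had 0 counts in GFPneg at their bound of 3 counts in each library. Ebf3, a factor of the early B cell factor family that also marks marrow reticular cells, stood at 75.8, 56.9 and 112 CPM in GFPpos and at 0.358, 0 and 0 CPM in GFPneg (9.54 ± 1.14, adjusted p = 0.000523). Foxc1, a forkhead factor, stood at 235, 215 and 346 CPM against 0.1102, 0 and 0.0455 CPM (12.38 ± 0.63, adjusted p = 2.51e-05). For both genes the groups did not overlap. Twist1, a basic helix-loop-helix factor of mesenchyme, was at least 564-fold higher, at 16.1, 19.9 and 24.98 CPM in GFPpos and 0 counts in GFPneg. Meis2 was at least 283-fold higher and Osr1 at least 167-fold. Factors with a level in both groups moved less: Zeb2 (1.70 ± 0.10, adjusted p = 4.63e-05) and Nfix (0.64 ± 0.11, adjusted p = 0.00257) passed, and Nfia (-0.29, adjusted p = 0.0681) and Zeb1 (-0.13, adjusted p = 0.435) did not pass. Nfia passed as lower with upper-quartile factors (adjusted p = 0.0383) and, like Zeb1, in the fit of all 12 libraries (0.000667 and 0.00353), and also without GFPneg replicate 3 (adjusted p = 0.0413) or GFPpos replicate 3 (0.0143).

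Among the reticular cell genes, Lepr, the leptin receptor, stood at 2574, 2568 and 3391 CPM in GFPpos and 1.01, 0.0984 and 0.318 CPM in GFPneg (12.57 ± 1.03, adjusted p = 0.000132). Kng1, a kininogen, stood at 689.99, 714 and 1159.7 CPM against 0.165, 0 and 0 CPM (14.04 ± 1.07, adjusted p = 0.000101), the largest fold of the list in a gene with any GFPneg count. Apoe, apolipoprotein E, had the smallest (7.50 ± 0.42, adjusted p = 3.43e-05), at 2349, 1195 and 2379.8 CPM against 11.97, 7.99 and 12.8 CPM. All GFPpos libraries lay above all GFPneg libraries for these genes. Grem1, which encodes the BMP antagonist gremlin, stood at 76.7, 73.7 and 152 CPM in GFPpos and 0.0689, 0 and 0 CPM in GFPneg. Ebf2, a relative of Ebf3, was at least 475-fold higher.

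Receptors through which stroma takes up growth factors and hormones followed the same direction with more variation among them. Of 25 tested, 22 were higher and 1 lower (median 6.63). Pth1r, the receptor of parathyroid hormone, stood at 322, 393 and 447 CPM in GFPpos and 0.138, 0.874 and 0 CPM in GFPneg (10.12 ± 1.18, adjusted p = 0.000468). Fgfr2, a fibroblast growth factor receptor, stood at 307, 272 and 471 CPM against 0.276, 0 and 0 CPM (12.03 ± 1.07, adjusted p = 0.000176), and the growth hormone receptor Ghr at 240.2, 298 and 437 CPM against 0.248, 0.0874 and 0.0682 CPM. The steroid and vitamin receptors were uneven. Vdr, the vitamin D receptor, stood at 120.1, 154 and 189 CPM against 0.0964, 0.262 and 0.0568 CPM, while Nr3c1, the glucocorticoid receptor, had 53.6, 49.2 and 47.4 CPM in GFPneg and 70.6, 79.5 and 86.8 CPM in GFPpos (0.66 ± 0.11, adjusted p = 0.00181). Il1rl1, the receptor of interleukin 33, was the lower member, at 54.1, 38.4 and 53.8 CPM in GFPneg and 21.7, 9.35 and 16.3 CPM in GFPpos (-1.62 ± 0.32, adjusted p = 0.00404), whereas its ligand gene Il33 had 0 counts in GFPneg and 2.91, 3.64 and 6.47 CPM in GFPpos. Igf1r did not pass (0.25, adjusted p = 0.0792), with 23.9, 22.4 and 25.9 CPM in GFPneg and 29.96, 27.2 and 28.8 CPM in GFPpos.

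Secreted ligands and their antagonists were high together. Of 28 BMP and Wnt genes tested, 27 were higher and 0 lower (median 9.99, or 9.16 with 4 genes at their bound). Bmp4, a bone morphogenetic protein, stood at 124, 71.4 and 134 CPM in GFPpos and 0.0827, 0 and 0 CPM in GFPneg (12.05 ± 0.76, adjusted p = 5.03e-05), and Bmp6 at 338, 403 and 680.5 CPM against 0.289, 0 and 0 CPM. Antagonists of the same pathways stood beside them, with Fst, follistatin, at 129, 49.6 and 66.7 CPM, the Wnt inhibitor Wif1 at 339, 137 and 211 CPM and Sfrp4, a secreted frizzled-related protein, at 1675, 1265 and 1629 CPM in GFPpos. Sfrp4 was also read in GFPneg, at 8.03, 8.58 and 9.603 CPM (7.44 ± 0.20, adjusted p = 1.03e-05). Dkk3, of the dickkopf family, was at least 3465-fold and Frzb, another antagonist of Wnt, at least 408-fold higher. Tgfb1 was the member that did not pass (0.58, adjusted p = 0.0738), with 104, 105 and 86.3 CPM in GFPneg and 96.1, 190.3 and 157 CPM in GFPpos, and passed as higher without GFPpos replicate 1 (adjusted p = 0.00356), with RLE factors (0.0494), DESeq2 (0.0187) and voom (0.017).

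Of the IGF axis, 8 of 10 genes tested were higher and 0 lower (median 9.24, or 8.58 with 2 at their bound). Igf1, insulin-like growth factor 1, stood at 141, 116 and 122 CPM in GFPpos and 0.165, 0 and 0 CPM in GFPneg (11.29 ± 0.82, adjusted p = 8.59e-05). Igfbp5, an IGF-binding protein, was among the most abundant transcripts of GFPpos at 5234, 6052 and 8696 CPM, and had 3.94, 0 and 0 CPM in GFPneg. The receptors Igf1r and Igf2r were the members that did not pass. Igf1r passed as higher with RLE factors (adjusted p = 0.0431), DESeq2 (0.0206) and a filter of 50 counts (0.0458), and Igf2r with DESeq2 (0.0319), with voom (0.0176) and without GFPpos replicate 1 (0.00523). Igfbp6 stood apart within GFPpos, at 0.05297, 11.05 and 11.2 CPM (6.85 ± 2.06, adjusted p = 0.0222), and its call was lost with voom (adjusted p = 0.0577) and without GFPneg replicate 1 or 2 or GFPpos replicate 2 or 3 (0.0554 to 0.0634).

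Cytokines and chemokines that act on blood cells were higher in 17 of 20 cases and lower in 0 (median 9.25, or 8.94 with 2 at their bound). Il7, the interleukin of lymphoid progenitors, stood at 48.8, 77.04 and 103 CPM in GFPpos and 0.2204, 0 and 0 CPM in GFPneg (10.15 ± 1.03, adjusted p = 0.000277). Csf1, the growth factor of macrophages, stood at 812, 508 and 757 CPM against 1.24, 0.0656 and 0.205 CPM (10.47 ± 1.14, adjusted p = 0.000364), and Il34, the other ligand of its receptor, at 431, 204 and 343 CPM against 0.138, 0 and 0 CPM. Ptn, pleiotrophin, was at least 1285-fold higher and uneven within GFPpos, at 4.44, 63.2 and 71.5 CPM. Cxcl10 had the smallest difference past the threshold (1.82 ± 0.39, adjusted p = 0.00539). Flt3l (0.31, adjusted p = 0.163) and Il6 (3.86, adjusted p = 0.0704) were among those that did not pass, though Il6 passed without GFPneg replicate 1 (adjusted p = 0.00691), with DESeq2 (0.0486), voom (0.00801) and all 12 libraries (0.00807).

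Promoters of Frzb and Ptn, both with 0 counts in GFPneg, are shown for a match to TCCCNNGGG, a motif of EBF factors such as Ebf3. They are RefSeq sequences on GRCm38.p6 from 250 bases before to 50 after the first listed start, 5′ to 3′ along the gene, with the match on either strand in capitals.
Frzb, chr2:80447347-80447646, minus strand: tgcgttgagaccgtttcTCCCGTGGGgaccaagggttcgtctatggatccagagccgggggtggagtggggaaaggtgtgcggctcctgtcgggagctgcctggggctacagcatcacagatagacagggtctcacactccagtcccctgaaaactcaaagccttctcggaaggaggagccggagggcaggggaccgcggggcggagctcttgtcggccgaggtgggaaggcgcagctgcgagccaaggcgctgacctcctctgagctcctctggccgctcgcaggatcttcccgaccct
Ptn, chr6:36810130-36810429, minus strand: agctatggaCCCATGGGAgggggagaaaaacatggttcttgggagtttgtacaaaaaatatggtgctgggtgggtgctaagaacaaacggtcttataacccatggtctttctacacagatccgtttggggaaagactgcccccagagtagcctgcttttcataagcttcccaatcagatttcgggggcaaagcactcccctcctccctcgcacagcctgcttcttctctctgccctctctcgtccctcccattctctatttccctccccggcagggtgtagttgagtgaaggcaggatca

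The match lies at -233 from the start in Frzb and at -241 in Ptn. The promoters of Cxcl12 and Kitl, taken in the same way, held 0 matches, and that of Ebf3 held 1, at -22. A promoter was in the table for 10394 of the 13890 genes tested, and 7.75% of these held the EBF motif on either strand. Among the 200 genes with the highest folds that had at least 5 CPM in GFPpos and groups that did not overlap, 133 had a promoter and 19 of them (14.29%, Wilson 95% interval 9.34 to 21.24%) held it, against 5 of 143 (3.5%, 1.5 to 7.92%) among the 200 lowest, chosen in the same way. With 100 or 400 genes the share among the highest was 17.91% or 11.57%, and among the lowest 4.35% or 6.71%. The AP-1 motif TGACTCA was in 3.55% of all promoters, 3.01% of the highest and 4.2% of the lowest. Mean GC content was 60.75% over all promoters, 59.48% in the highest and 59.49% in the lowest. These shares are descriptions with no test, the intervals cover counting error only, and a match is not a bound site.

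In the Notch pathway 8 of 12 genes were higher and 0 lower (median 5.32). The ligand Jag1 stood at 39.2, 45.2 and 42.3 CPM in GFPpos and 0.0276, 0.0656 and 0.102 CPM in GFPneg (9.27 ± 0.35, adjusted p = 1.38e-05), and the receptor Notch3, which marks mural cells, at 374, 302 and 242 CPM against 0.2204, 0.0437 and 0.114 CPM (11.29 ± 0.49, adjusted p = 1.69e-05). The ligand genes Jag2, Dll1 and Dll4 stayed under 3 CPM in every library and did not pass. The target gene Heyl stood at 112, 134 and 128 CPM against 0.0276, 0 and 0.114 CPM.

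Genes of the dialogue with nerve fibres were read almost only in GFPpos. Of 24 in the files, 17 passed the filter on low counts, and these were all higher, with a median of 11.17, or 8.27 with 7 genes at their bound. Those 7 had 0 counts in GFPneg and could pass the filter only through GFPpos, so their direction was fixed on entry. Npy1r, a receptor of neuropeptide Y, was at least 545-fold higher, at 20.5, 19.01 and 19.5 CPM. Adrb3, a receptor of noradrenaline, was at least 211-fold higher, at 2.89, 8.28 and 11.7 CPM. Guidance ligands of axons included Slit2, at 78.8, 125 and 127 CPM in GFPpos and 0, 0 and 0.0114 CPM in GFPneg.

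The matrix was the most abundant product of GFPpos. All 28 genes tested for fibrillar collagens and their assembly were higher (median 9.80), and they summed to 142671, 210832 and 186942 CPM in GFPpos replicates 1 to 3 against 174.5 to 235.1 CPM in GFPneg. Col1a1, a chain of type I collagen at chr11:94936224-94953042, stood at 82390.5, 120727 and 105717 CPM in GFPpos and 0.358, 0.153 and 0.5000 CPM in GFPneg (18.22 ± 0.81, adjusted p = 1.75e-05). Col3a1, the chain of type III collagen, stood at 634, 571 and 547 CPM against 0.358, 0.197 and 1.57 CPM (9.68 ± 0.90, adjusted p = 0.000207). Enzymes of collagen assembly differed less from a level already present in GFPneg: the prolyl hydroxylase subunit P4ha1 stood at 21.7, 16.3 and 16.05 CPM in GFPneg and 116, 198 and 195 CPM in GFPpos (3.23 ± 0.26, adjusted p = 0.000116). Col5a1 had the smallest fold of the list (3.02 ± 0.16, adjusted p = 2.59e-05), at 111, 113 and 108 CPM in GFPneg.

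Of 21 basement membrane genes tested, 20 were higher and 0 lower (median 9.05, or 8.51 with 3 at their bound). Col4a1, a chain of type IV collagen, stood at 763, 846 and 1161 CPM in GFPpos and 4.08, 0.0656 and 0.205 CPM in GFPneg (9.34 ± 1.67, adjusted p = 0.00261), and Lama4, a laminin chain, at 144, 106 and 167 CPM against 0.413, 0.0219 and 0 CPM. Sparc, a collagen-binding glycoprotein, reached 16446, 21900.1 and 20132 CPM against 10.2, 8.61 and 0.273 CPM (11.58 ± 1.57, adjusted p = 0.000863). Of 27 proteoglycan and elastic fibre genes, 24 were higher and 1 lower (median 8.06, or 7.95 with 2 at their bound). Dcn, decorin, stood at 1613, 2172 and 2419 CPM against 0.882, 0 and 0 CPM (12.85 ± 1.87, adjusted p = 0.00112), and Eln, elastin, at 41.1, 44.7 and 25.5 CPM against 0.496, 0 and 0 CPM. Emilin2 was the lower member, at 268, 271 and 253 CPM in GFPneg and 120.3, 91.9 and 64.4 CPM in GFPpos (-1.52 ± 0.22, adjusted p = 0.00118).

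Genes of bone-forming cells were mostly higher. Of 22 osteoblast genes tested, 20 were higher and 0 lower (median 10.63, or 9.82 with 5 at their bound). Bglap, which encodes osteocalcin and lies at chr3:88383495-88384466, stood at 2030.1, 3125 and 3837 CPM in GFPpos with 0 counts in GFPneg, at least 83097-fold higher. Its neighbour Bglap2 is nearly identical, so the split of reads between the pair is uncertain; it was at least 53861-fold higher. Runx2, the transcription factor of the osteoblast lineage, stood at 72.7, 109 and 133 CPM against 0.413, 0.0437 and 0.0227 CPM (9.45 ± 0.88, adjusted p = 0.000211). Enpp1, which makes pyrophosphate outside the cell, had the smallest fold past the threshold (2.74 ± 0.33, adjusted p = 0.000561), and Atf4 (-0.10, adjusted p = 0.401) and Ank (-0.43, adjusted p = 0.0574) did not pass. Ank passed as lower without GFPpos replicate 2 (adjusted p = 0.00195), with upper-quartile factors (0.0337) and without matrix genes in the scaling (0.0439), and in the fit of all 12 libraries both did (Ank 0.000682, Atf4 0.00454). Of 10 osteocyte genes, 9 were higher and 1 lower (median 12.81, or 8.72 with 6 at their bound). These 6 and the 5 osteoblast genes at their bound had 0 counts in GFPneg. They could pass the filter on low counts only through GFPpos, so their direction was fixed on entry. Dmp1, a protein of the mineralised matrix, was at least 13255-fold higher, at 229, 494 and 711 CPM, and Phex, an endopeptidase of osteocytes, stood at 165, 207 and 268 CPM against 0, 0.0219 and 0 CPM. Cd44 was the lower member (-0.90 ± 0.16, adjusted p = 0.00245). Within GFPpos, the summed osteoblast level was 16869.6, 27093 and 28572 CPM in replicates 1 to 3.

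The cartilage list was mixed. Of 12 genes tested, 6 were higher and 1 lower (median 2.06), beside 41.4% higher and 30.6% lower over all genes tested. Col2a1, the chain of cartilage collagen, stood at 1000.03, 2452 and 3470.1 CPM in GFPpos and 0.0138, 44.4 and 0.0341 CPM in GFPneg (7.28 ± 2.69, adjusted p = 0.0468), where GFPneg replicate 2 stood apart, and the call was lost without any 1 library but that one (adjusted p = 0.0514 to 0.0893). Acan, aggrecan, stood at 0, 5.14 and 0 CPM in GFPneg and 1.23, 4.91 and 0 CPM in GFPpos, and the groups overlapped (adjusted p = 0.931). Sox9, the master factor of cartilage, stood at 0, 0.6996 and 0 and 10.7, 6.63 and 19.5 CPM (5.68 ± 1.66, adjusted p = 0.01999), and did not pass without GFPpos replicate 3 (adjusted p = 0.0608). Sox6 was the lower member (-1.86 ± 0.30, adjusted p = 0.00183), with 49.95, 51.9 and 55.8 CPM in GFPneg. GFPneg replicate 2 held the GFPneg counts of Acan, Sox9, Col9a1, Col9a2, Col11a2, Hapln1 and Chad, each at 0 counts in the other two GFPneg libraries. Without it, Col9a1, Col9a2, Hapln1 and Chad, which did not pass, passed as higher (adjusted p = 0.00198 to 0.016).

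Genes of pericytes and smooth muscle were higher in 17 of 18 cases and lower in 0 (median 9.22, or 8.62 with 5 at their bound). Acta2, smooth muscle actin, stood at 621, 1085 and 435 CPM in GFPpos and 0.152, 0.131 and 0.182 CPM in GFPneg (12.15 ± 0.54, adjusted p = 1.73e-05). Myh11, smooth muscle myosin, stood at 401, 675 and 197 CPM against 0.0551, 0 and 0.0341 CPM (13.80 ± 0.88, adjusted p = 5.06e-05), and Rgs5, a pericyte gene, was at least 1946-fold higher at 75.3, 98.1 and 37.2 CPM. All 3 genes stood highest in GFPpos replicate 2 and lowest in replicate 3. Of 17 fibroblast genes, 15 were higher and 0 lower (median 5.74). Scara5, a ferritin receptor of stroma, was at least 3352-fold higher, while Pi16 stood at 0.565, 0.536 and 0.818 CPM and 5.12, 1.39 and 6.28 CPM (2.73 ± 0.63, adjusted p = 0.00769).

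Of 20 adipocyte lineage genes tested, 13 were higher and 3 lower (median 2.62). The transcription factors Cebpa (8.55 ± 0.49, adjusted p = 3.67e-05) and Pparg (7.44 ± 1.11, adjusted p = 0.00123) were higher, at 84.1, 47.1 and 88.2 CPM and 58.04, 45.04 and 73.6 CPM in GFPpos. Adipoq, which encodes adiponectin, stood at 1628, 1561 and 2635 CPM against 0.661, 0.0219 and 0 CPM (13.13 ± 1.62, adjusted p = 0.000588). The 3 lower members were Acsl1, an acyl-CoA synthetase (-1.40 ± 0.15, adjusted p = 0.000312), Fasn, fatty acid synthase (-0.82 ± 0.14, adjusted p = 0.001997), and Plin2, a lipid droplet protein (-0.57 ± 0.12, adjusted p = 0.00483), and Lipe (-0.14, adjusted p = 0.534) and Acaca (0.30, adjusted p = 0.171) did not pass, though Lipe passed as lower in the fit of all 12 libraries (adjusted p = 0.0442).

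At the cell surface, 13 of 15 caveola and gap junction genes were higher and 2 lower (median 5.84). Gja1, connexin 43, stood at 1572, 1849 and 2283 CPM in GFPpos and 41.04, 30.6 and 31.4 CPM in GFPneg (5.79 ± 0.24, adjusted p = 1.53e-05). Cav1, caveolin 1, stood at 59.1, 72.9 and 29.1 CPM against 2.12, 0 and 0 CPM (6.29 ± 1.69, adjusted p = 0.0145), and did not pass without GFPpos replicate 2 (adjusted p = 0.0503). Of 21 integrin and cadherin genes, 17 were higher and 1 lower (median 7.64). Itgb1, the shared beta chain, stood at 379.7, 377 and 393 CPM in GFPneg and 815, 1042 and 1072 CPM in GFPpos (1.35 ± 0.14, adjusted p = 0.000312), and Itga4, the chain that pairs with it in binding Vcam1, was the lower member (-1.78 ± 0.26, adjusted p = 0.00116). Vcam1 itself stood at 2058, 1345 and 1910.2 CPM in GFPpos and 4.22, 0.153 and 1.93 CPM in GFPneg. Cdh15, M-cadherin, was at least 1757-fold higher.

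Of 16 complement genes, 15 were higher and 1 lower (median 7.25). C3, the central component, stood at 529, 744 and 1399 CPM in GFPpos and 16.5, 7.31 and 11.1 CPM in GFPneg (6.26 ± 0.54, adjusted p = 0.000163), and C4b at 2778, 2727 and 4286 CPM against 0.964, 0.361 and 0.136 CPM (12.73 ± 0.94, adjusted p = 8.92e-05). C1s1, a protease of the first component, stood at 412, 503 and 781 CPM against 0.0551, 0 and 0.0455 CPM. The lower member was Cd55, a membrane inhibitor of complement (-0.76 ± 0.12, adjusted p = 0.00169). Of 23 immediate early and heat shock genes, 21 were higher and 1 lower (median 3.74). Fos stood at 2309, 3282 and 5298 CPM in GFPpos and 75.97, 57.4 and 52.7 CPM in GFPneg (5.87 ± 0.40, adjusted p = 6.93e-05), and Socs3, an inhibitor of cytokine signalling, at 617, 757 and 1312 CPM against 3.31, 0.328 and 0.0682 CPM (9.53 ± 1.53, adjusted p = 0.00167). Fos, Egr1, Jun, Junb and Socs3 stood highest in GFPpos replicate 3 and lowest in replicate 1. The lower member was Dnajb1 (-0.48 ± 0.13, adjusted p = 0.0144).

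**Figure D3:**
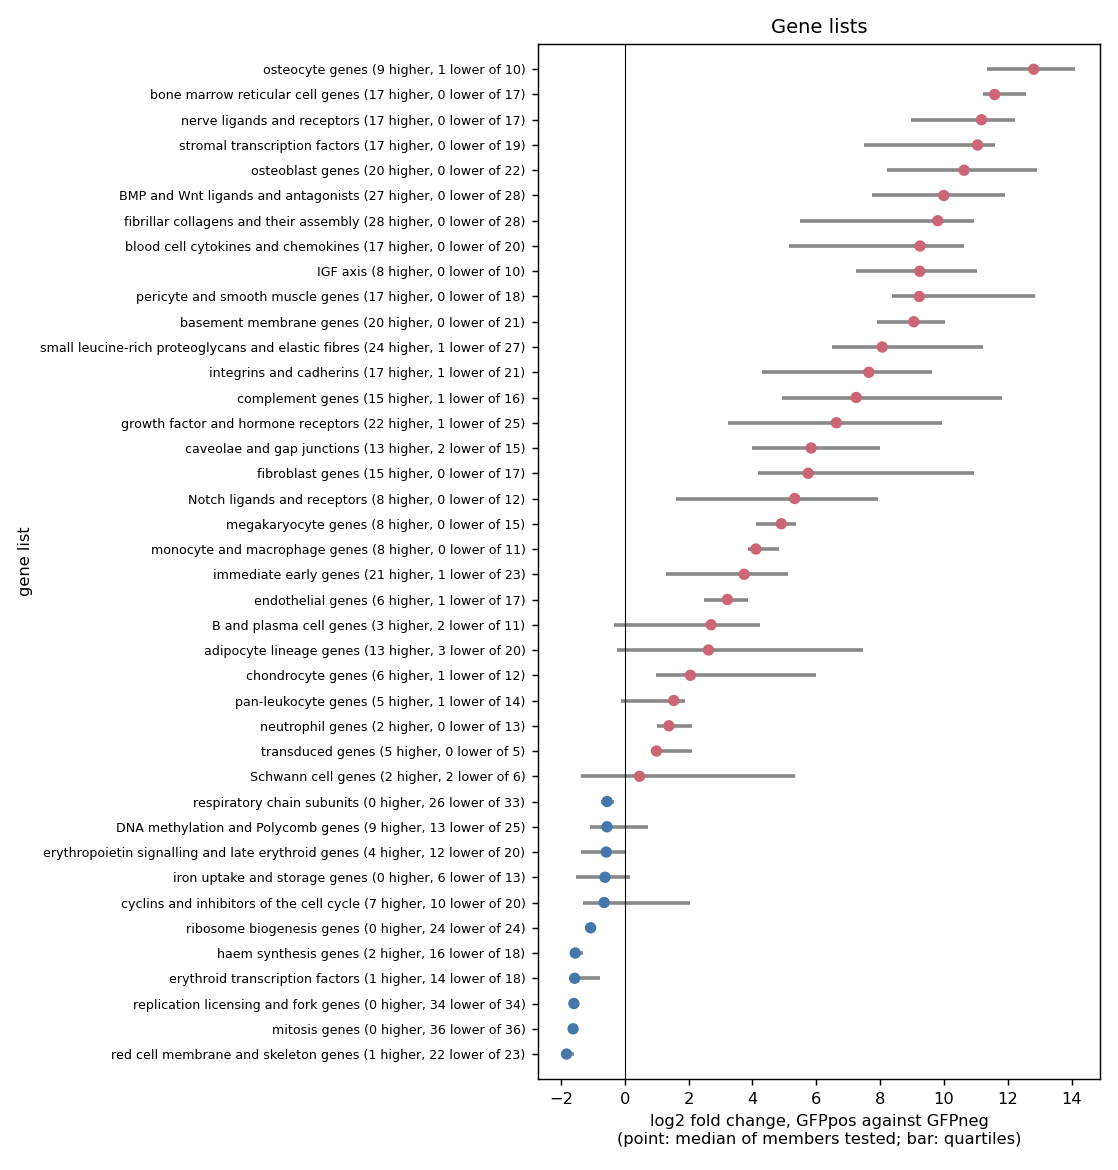
Median (points) and quartiles (bars) of the fitted log2 fold change, GFPpos against GFPneg, over the tested members of each gene list with at least 5 of them, with the number higher and lower after each name. The stromal, matrix and bone lists reach the largest medians, up to 12.81 in the osteocyte list, while the lowest median is -1.82, in the red cell membrane list.

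Genes of the red cell lineage went the other way. Of 18 erythroid transcription factors tested, 14 were lower in GFPpos and 1 higher (median -1.57). Gata1, the central factor of the lineage, stood at 532, 515 and 431 CPM in GFPneg and 187, 195 and 116 CPM in GFPpos (-1.57 ± 0.22, adjusted p = 0.000981). Klf1, which binds the CACCC box of globin genes, stood at 880.5, 869 and 766 CPM against 339.6, 268 and 179 CPM (-1.68 ± 0.24, adjusted p = 0.00108). The lowest was Ikzf1 (-1.97 ± 0.35, adjusted p = 0.00264). Ldb1 (0.04, adjusted p = 0.768) and Cbfa2t3 (-0.12, adjusted p = 0.387), partners of Gata1 in one complex, did not pass. Stat5a was the higher member (0.92 ± 0.34, adjusted p = 0.0478), but its groups overlapped, at 125, 110.4 and 124 CPM in GFPneg and 125, 213 and 343 CPM in GFPpos. That call was lost without any 1 library but GFPpos replicate 1 (adjusted p = 0.0929 to 0.123), with upper-quartile factors (0.0592), without a filter (0.0557) and without matrix genes in the scaling (0.0534).

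Of 23 membrane and skeleton genes of red cells, 22 were lower and 1 higher (median -1.82). Slc4a1, the anion exchanger band 3 at chr11:102348820-102365281, stood at 1234, 1258 and 1499 CPM in GFPneg and 358, 270.2 and 179 CPM in GFPpos (-2.31 ± 0.27, adjusted p = 0.000489). The groups did not overlap. The higher member was Slc2a1, a glucose transporter (4.94 ± 0.36, adjusted p = 8.65e-05), at 0.827, 0.831 and 0.386 CPM in GFPneg.

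Of 18 haem synthesis genes, 16 were lower and 2 higher (median -1.55). Alas2, the first enzyme of the pathway in red cells, stood at 159, 151 and 183 CPM in GFPneg and 47.8, 40.7 and 30.5 CPM in GFPpos (-2.05 ± 0.18, adjusted p = 0.000181), while Alas1, its counterpart in other cells, was higher at 23.96, 21.8 and 23.97 CPM against 46.6, 34.9 and 36.8 CPM (0.76 ± 0.14, adjusted p = 0.00296). The other higher member was Hmox1, which breaks haem down, at 0.303, 0.2405 and 0.591 CPM in GFPneg and 55.6, 39.4 and 42.8 CPM in GFPpos (6.91 ± 0.40, adjusted p = 3.76e-05). The list thus held both directions.

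Of 13 iron genes tested, 6 were lower, 0 higher and 7 did not pass (median -0.62), beside 30.6% lower and 41.4% higher over all genes tested. Tfrc, the transferrin receptor CD71, stood at 919, 1011 and 1103 CPM in GFPneg and 316, 282 and 170.1 CPM in GFPpos (-1.98 ± 0.25, adjusted p = 0.000629), and Steap3, the reductase of the same endosome, had -1.56 ± 0.17, adjusted p = 0.000376. The ferritin chains Fth1 (0.08, adjusted p = 0.685) and Ftl1 (0.17, adjusted p = 0.345) did not pass, at 3697, 3739 and 3774 CPM of Fth1 in GFPneg and 3795, 3559 and 4459.8 CPM in GFPpos. Of 20 genes of erythropoietin signalling and later maturation, 12 were lower and 4 higher (median -0.58). Epor, the erythropoietin receptor, stood at 211, 204 and 203 CPM in GFPneg and 88.1, 72.9 and 66.2 CPM in GFPpos (-1.44 ± 0.12, adjusted p = 0.000148), and Kit, the receptor of stem cell factor, at 151, 117 and 146 CPM against 84.5, 33.4 and 44.1 CPM (-1.36 ± 0.35, adjusted p = 0.0116). Socs2, a target of that signalling which other cells use as well, was higher (5.83 ± 0.64, adjusted p = 0.000364). Hemgn, hemogen, stood at 434, 478 and 462 CPM against 142, 122 and 71.5 CPM (-2.03 ± 0.26, adjusted p = 0.000641). Globin genes were at 0 counts in all 6 libraries and give no measurement.

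Alas2 and Hemgn are also shown by their promoters, taken and written in the same way, with the match to AGATAA, the motif of GATA factors, on either strand in capitals.
Alas2, chrX:150547167-150547466, plus strand: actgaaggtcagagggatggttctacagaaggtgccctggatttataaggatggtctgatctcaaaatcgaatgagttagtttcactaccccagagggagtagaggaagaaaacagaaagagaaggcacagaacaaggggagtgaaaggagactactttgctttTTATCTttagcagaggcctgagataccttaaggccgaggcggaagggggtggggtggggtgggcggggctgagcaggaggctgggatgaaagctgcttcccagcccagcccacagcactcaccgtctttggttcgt
Hemgn, chr4:46404134-46404433, minus strand: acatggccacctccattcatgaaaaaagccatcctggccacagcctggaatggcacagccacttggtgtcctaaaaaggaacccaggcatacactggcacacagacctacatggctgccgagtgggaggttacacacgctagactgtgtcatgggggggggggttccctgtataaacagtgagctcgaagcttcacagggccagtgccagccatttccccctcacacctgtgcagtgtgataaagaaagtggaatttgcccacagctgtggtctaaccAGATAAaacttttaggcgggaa

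The match lies at -86 from the start of Alas2, on the strand opposite the gene, and at 29 after the start of Hemgn. The GATA motif was in 6.48% of all promoters, in 14 of 143 (9.79%, Wilson 95% interval 5.92 to 15.76%) of the 200 lowest genes with a promoter and in 11 of 133 (8.27%, 4.68 to 14.2%) of the 200 highest. The CACCC box CCACACCC, bound by Klf1, was in 3.82% of all, 6.99% (3.84 to 12.39%) of the lowest and 1.5% (0.41 to 5.32%) of the highest. With 100 or 400 genes its share was 5.8% (2.28 to 13.98%) or 4.36% (2.57 to 7.32%) of the lowest, and 0% or 1.87% of the highest. The GATA share was then 8.7% or 9.73% of the lowest and 7.46% or 6.72% of the highest.

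Genes of dividing cells were lower without exception in the tested members of 2 lists. All 34 genes of replication licensing and the fork were lower (median -1.59), and so were all 36 mitosis genes (median -1.62). Mcm2, a subunit of the replicative helicase, stood at 1387, 1453 and 1296 CPM in GFPneg and 543, 428 and 276 CPM in GFPpos (-1.73 ± 0.26, adjusted p = 0.00119). Cdk1, the kinase that starts mitosis, stood at 280.1, 292 and 274 CPM against 108, 116 and 69.1 CPM (-1.53 ± 0.20, adjusted p = 0.000748), and Orc1, of the origin recognition complex, had the lowest value of the replication list (-2.05 ± 0.24, adjusted p = 0.000472). All GFPpos libraries lay below all GFPneg libraries for these 3 genes.

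Regulators of the cycle were divided. Over all genes tested, 30.6% were lower and 41.4% higher, which stands beside the counts of the 2 lists that follow. Of 20 cyclins, kinases and inhibitors tested, 10 were lower and 7 higher (median -0.64). Ccnd3, the cyclin D of blood cells, stood at 1109, 1141 and 1037 CPM in GFPneg and 507, 483 and 384 CPM in GFPpos, whereas Ccnd1 stood at 0.441, 0.557 and 0.818 CPM and 7.43, 8.098 and 5.498 CPM (3.53 ± 0.38, adjusted p = 0.000347). The inhibitors Cdkn1a (4.92 ± 0.39, adjusted p = 0.00011) and Cdkn1c (6.96 ± 0.83, adjusted p = 0.000526) and the growth arrest gene Gas1 (11.22 ± 0.65, adjusted p = 3.65e-05) were higher. Of 25 DNA methylation and Polycomb genes, 13 were lower and 9 higher (median -0.56). The maintenance enzyme Dnmt1 (-1.52 ± 0.26, adjusted p = 0.00224) and the methyltransferase Ezh2 (-1.53 ± 0.12, adjusted p = 0.000101) were lower, and Ezh1 (1.76 ± 0.17, adjusted p = 0.000243) and Cbx7 (2.39 ± 0.25, adjusted p = 0.000326) were higher. Dnmt3a, which adds new methyl marks to DNA, was also higher, at 17.96, 21.8 and 18.8 CPM in GFPneg and 30.5, 75.4 and 60.04 CPM in GFPpos (adjusted p = 0.00579).

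Genes of ribosome synthesis and respiration were lower by less. All 24 ribosome biogenesis genes were lower (median -1.07), with Ncl, nucleolin, at 1323, 1345 and 1314 CPM in GFPneg and 777, 724 and 618 CPM in GFPpos (-0.91 ± 0.13, adjusted p = 0.00112), and Npm1, nucleophosmin, at 880.5, 895 and 962 CPM against 396, 411 and 349 CPM (-1.24 ± 0.12, adjusted p = 0.000218). Of 33 nuclear-encoded subunits of the respiratory chain, 26 were lower and 0 higher (median -0.55). Cox4i1 had a small difference (-0.33 ± 0.09, adjusted p = 0.0154), a call lost without GFPneg replicate 2 (adjusted p = 0.0597) or 3 (adjusted p = 0.0559), and Ndufs1 the lowest value (-1.05 ± 0.13, adjusted p = 0.000612).

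The 11 lists with a negative median and at least 5 genes tested were followed in each GFPpos library. Relative to the GFPneg mean, the median erythroid transcription factor stood at 0.410, 0.365 and 0.283 in GFPpos replicates 1 to 3. Red cell membrane genes stood at 0.362, 0.298 and 0.210, and haem synthesis genes at 0.409, 0.343 and 0.279. Replication genes stood at 0.426, 0.363 and 0.217, mitosis genes at 0.398, 0.366 and 0.209, and ribosome biogenesis genes at 0.529, 0.485 and 0.391. Genes of erythropoietin signalling and later maturation stood at 0.679, 0.638 and 0.616. In each of these 7 lists replicate 1 was highest and replicate 3 lowest. The other 4 lists did not keep that order: iron genes stood at 0.579, 0.874 and 0.479, cyclins and inhibitors at 0.674, 0.522 and 0.760, DNA methylation and Polycomb genes at 0.689, 0.721 and 0.712, and respiratory chain subunits at 0.692, 0.693 and 0.711. The part of red cell precursors in the cell cycle levels of GFPpos was not tested.

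**Figure D4:**
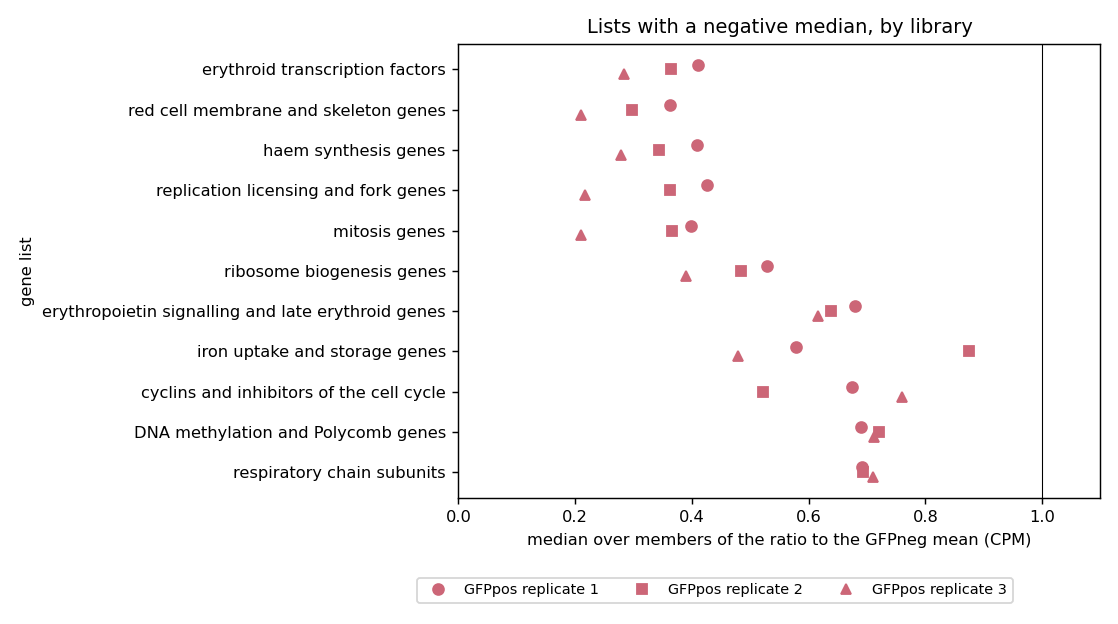
Median ratio of the GFPpos level to the GFPneg mean over the members of the 11 lists with a negative median and at least 5 genes tested, with 1 symbol for each GFPpos replicate and the line at 1 for equal levels. Replicate 1 lies highest and replicate 3 lowest in the first 7 lists, and the last 4 lists do not keep that order.

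Of the genes chosen for their extreme folds, the 12 highest were Bglap, Bglap2, Col1a1, Dmp1, Col22a1, A2m, Prss35, Cpz, Wisp1, Adcy2, Gpr153 and Dkk3. All but Col1a1 had 0 counts in every GFPneg library. A2m, alpha-2-macroglobulin, a broad protease inhibitor, stood at 345, 327 and 515 CPM in GFPpos and was at least 10972-fold higher. Prss35, a serine protease, stood at 143, 354 and 351 CPM and was at least 7842-fold higher, and Adcy2, an adenylyl cyclase, stood at 156, 168 and 252 CPM and was at least 5323-fold higher. The 12 lowest ran from Pkhd1l1 (-3.33 ± 0.31, adjusted p = 0.000209), at 25.98, 18.9 and 30.6 CPM in GFPneg and 2.46, 3.27 and 1.77 CPM in GFPpos, through the mitotic kinesin Kifc1 (-2.37 ± 0.18, adjusted p = 0.000101) and the interferon-induced Oas3 (-2.31 ± 0.35, adjusted p = 0.00132), to Brca1, a DNA repair gene (-2.15 ± 0.31, adjusted p = 0.00115). The others were Slc4a1, Epb4.2, Apol8, Rpia, Cecr2, Mastl, Pask and Zfp367, all between -2.31 and -2.14. The call of Cecr2 (adjusted p = 0.0287) was lost without GFPpos replicate 2 (adjusted p = 0.0911) or without any 1 GFPneg library (adjusted p = 0.0531 to 0.0655).

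The 5 genes that the study transduced into cultured stroma, a list chosen by the study and so no independent evidence of direction, were all higher in fresh GFPpos than in GFPneg (median 0.99). Klf7, a Krüppel-like factor, stood at 1.24, 1.54 and 1.34 CPM in GFPneg and 11.1, 12.5 and 15.5 CPM in GFPpos (3.25 ± 0.24, adjusted p = 9.27e-05), and Xbp1, a factor of the secretory pathway, at 67.8, 77.1 and 70.4 CPM against 263, 298 and 359 CPM (2.10 ± 0.14, adjusted p = 6.11e-05). Ostf1 (0.99 ± 0.07, adjusted p = 8.98e-05) and Irf7 (0.89 ± 0.14, adjusted p = 0.00135) differed less. Irf3 differed least (0.35 ± 0.11, adjusted p = 0.0255), and its call was lost without any 1 library but GFPpos replicate 1 (adjusted p = 0.0502 to 0.0965) and with all 12 libraries (0.136).

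Markers of other cell types were followed in every library. Of 15 megakaryocyte genes, 8 were higher and 0 lower (median 4.90), beside 41.4% higher and 30.6% lower over all genes tested. Their summed level was 58.9, 275.6 and 57.5 CPM in GFPneg replicates 1 to 3 and 406, 4698 and 3934 CPM in GFPpos. Pf4, platelet factor 4, stood at 0.551, 16.6 and 0.523 CPM in GFPneg and 16.9, 1176 and 795 CPM in GFPpos (6.81 ± 2.15, adjusted p = 0.02699), and Itga2b, the platelet integrin chain CD41, at 0.661, 27.3 and 0.432 CPM and 84.97, 604 and 415 CPM (5.28 ± 1.80, adjusted p = 0.0355). The highest GFPneg library, replicate 2, lay close to the lowest GFPpos library, replicate 1, for Pf4, and the groups did not overlap in either gene. Both calls were lost without any 1 of 4 libraries, GFPneg replicate 1 or 3 or GFPpos replicate 2 or 3 (adjusted p = 0.0556 to 0.0676 for Pf4 and 0.0624 to 0.0855 for Itga2b).

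Transcripts of white blood cells were read in both groups. Of 14 pan-leukocyte genes, 5 were higher and 1 lower (median 1.54), beside 41.4% higher and 30.6% lower over all genes tested. Their sums ran from 296.4 to 395.4 CPM (GFPneg) and from 446 to 822 CPM (GFPpos). Coro1a, of the leukocyte cortex, stood at 24.1, 14.7 and 11.9 CPM against 97.8, 127 and 71.7 CPM (2.55 ± 0.33, adjusted p = 0.000751). Neutrophil genes were higher in 2 of 13 cases and lower in 0 (median 1.38), beside the same shares over all genes tested. Neutrophil sums ran from 777 to 1432 CPM in GFPneg and were 4765, 1820.2 and 987 CPM in GFPpos replicates 1 to 3. Mpo, myeloperoxidase, stood at 95.4, 3.24 and 26.7 CPM in GFPneg and 532, 0.158 and 3.16 CPM in GFPpos, where replicate 1 stood apart, and Prtn3, a granule protease that passed (2.79 ± 0.93, adjusted p = 0.0331), lost its call without GFPpos replicate 1 (adjusted p = 0.113) or without GFPneg replicate 2 (0.0581) or 3 (0.0972). Of 11 monocyte and macrophage genes, 8 were higher and 0 lower (median 4.11), and Vcam1 alone gave most of the sum in GFPpos (1685 to 2655 CPM, against 97.0 to 152.9 CPM in GFPneg). Csf1r, the receptor of Csf1, stood at 1.05, 0.547 and 0.818 CPM in GFPneg and 19.1, 24.4 and 0.0761 CPM in GFPpos (4.18 ± 1.54, adjusted p = 0.0462), and its call was lost without any 1 library but GFPpos replicate 3 (adjusted p = 0.0912 to 0.123) and with voom (0.0854).

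Of 11 B and plasma cell genes, 3 were higher and 2 lower (median 2.70), beside 41.4% higher and 30.6% lower over all genes tested. The lowest log2 fold change among those tested was -9.15. The 3 higher were Cd79b, Ebf1 and Sdc1, of which Ebf1 is also a gene of marrow stroma. Ebf1 and Sdc1 together gave most of the GFPpos sums of 892, 455.5 and 699.7 CPM in replicates 1 to 3, against 8.35 to 21.3 CPM in GFPneg. Cd79a, a part of the B cell receptor, stood at 0.523, 0.503 and 0.682 CPM in GFPneg and 10.04, 0.911 and 0.171 CPM in GFPpos (adjusted p = 0.114, but as higher 0.0324 without GFPpos replicate 3 and 0.0356 with DESeq2). The T and NK cell list (0 higher and 0 lower of 3) and the mast cell list (0 and 2 of 3) summed to at most 35.98 CPM in any library, and Cd3e, Cd4 and Cd8a did not pass the filter on low counts. Of 17 endothelial genes, 6 were higher and 1 lower (median 3.21), beside 41.4% higher and 30.6% lower over all genes tested. Their sums ran from 200.5 to 258.7 CPM (GFPneg) and from 485 to 576 CPM (GFPpos). The lower member, Egfl7, stood at 40.9, 39.9 and 35.4 CPM in GFPneg and 28.5, 14.8 and 13.2 CPM in GFPpos (-1.04 ± 0.30, adjusted p = 0.0199). That call was lost without GFPpos replicate 2 (adjusted p = 0.0677). Cdh5, VE-cadherin, stood at 1.13, 0 and 0 CPM and 5.32, 0.9504 and 0 CPM (adjusted p = 0.386), and Stab2, a receptor of sinusoids, at 0.523, 0 and 0 CPM and 41.7, 5.29 and 1.98 CPM (6.61 ± 2.01, adjusted p = 0.0233), with the call lost without GFPpos replicate 1 (adjusted p = 0.0988) or without GFPneg replicate 2 (0.0548) or 3 (0.0613). Of 6 Schwann cell genes, 2 were higher and 2 lower (median 0.46), beside the same shares over all genes tested, while Sox10 did not pass the filter. S100b had the highest value (11.25 ± 0.73, adjusted p = 5.51e-05) and Gfap the lowest (-2.46 ± 0.68, adjusted p = 0.0159). Gfap stood at 10.2, 9.46 and 9.50 CPM in GFPneg and 3.65, 1.01 and 0.609 CPM in GFPpos. Its call was lost without GFPpos replicate 2 (adjusted p = 0.0559). The part of these cells in the stromal and erythroid differences was not tested.

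**Figure D5:**
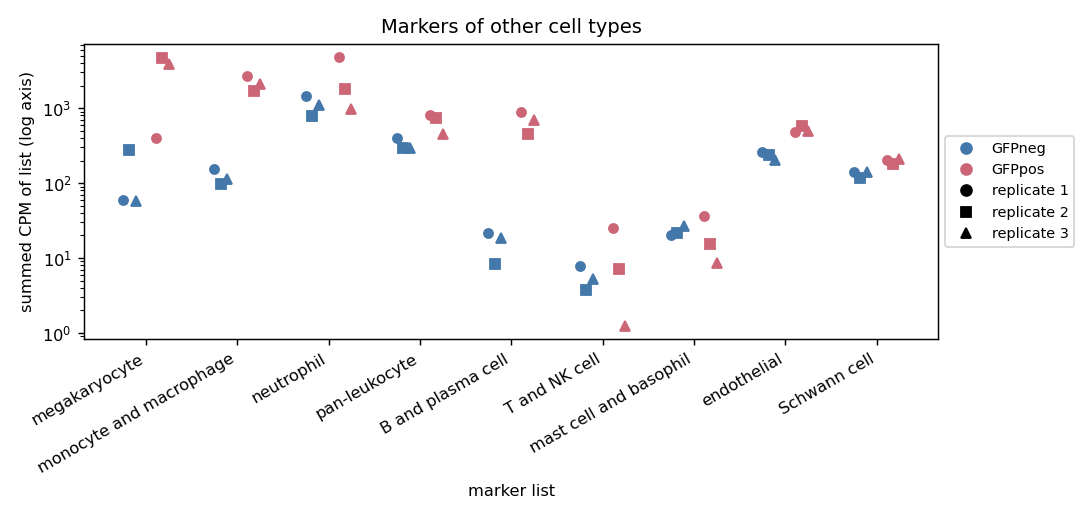
Summed level of 9 marker lists of other cell types in each library, in CPM on a log axis, with GFPneg in blue, GFPpos in red and the replicate as the symbol. The megakaryocyte sum stands at 4698 and 3934 CPM in GFPpos replicates 2 and 3 and at 406 CPM in replicate 1. The neutrophil, T and NK cell and mast cell sums of the groups overlap.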

How the data were processed

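RNA from 1000 to 5000 sorted cells per library had been sequenced as 150 bp single reads after SMART-Seq v4 amplification, per the labels' protocols. The deposited values are raw counts per gene symbol, made by the authors with STAR 2.4.1c on mm10 and featureCounts 1.4.6, per the submitters' processing notes. Annotation release and strand setting are not given in the sources used here beyond an Ensembl GRCm38 reference named in the labels, so overlapping genes may share reads. Of 24062 symbols, 27 turned into dates (0.183 to 0.232% of counts) were left out. Mitochondrially encoded genes are not analysed here.

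Counts of the 6 libraries were fitted alone in R 4.3.3 with edgeR 4.0.16 (TMM, filterByExpr, quasi-likelihood F-test, 4 residual degrees of freedom), two-sided, with Benjamini-Hochberg adjustment over 13890 genes. SE is the absolute log2 fold change divided by the square root of F. Levels in CPM use TMM factors. Against 0 counts, a fold is a bound at 3 counts in each library. A gene with 0 counts in GFPneg could pass the filter on low counts only through GFPpos, so its direction was fixed on entry. The counts of list members higher in GFPpos include such genes. The depth of 60507051 to 85353566 counts sets these floors, which hold for counting error alone, as amplified reads with no molecular identifier are not separate molecules. An exact permutation test of 3 against 3 cannot go below p = 0.1, so none was run on single values.

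The members, the 43 gene lists and the rules were chosen with earlier results of these data known. Of the list symbols, 17 were matched through RefSeq synonyms and 3 were absent. Named genes are those of the gate, in each list the first 2 and the highest and lowest that passed (1 CPM or more in the group where they are high), and the 12 highest and 12 lowest of all genes (20 CPM or more there, and no overlap of the groups), without predicted genes, histones, receptor segments and ribosomal pseudogenes. A further 63 list members were named after their values were seen. Some genes that the rule names are not reported here.

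Alternatives were RLE and upper-quartile factors, DESeq2 1.42.0, voom with quality weights in limma 3.58.1, no filter or 50 counts in 3 libraries, all 12 libraries, a robust fit, the replicate number as a block, a test against 2-fold, scaling without the 3 most abundant matrix genes, and each library or both replicate 1 libraries left out. The tests and the motif search were checked on simulated data.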

Additional observations from a re-analysis of the deposited data

How the results depend on the processing

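The count of genes higher in GFPpos ran from 5305 to 5813 and that of genes lower from 3685 to 4531 with 1 library left out, and under the other alternatives both stayed within 1.5 times of 5744 and 4246, except that a test against 2-fold gave 4157 higher and 730 lower, since it asks for a larger difference. Without replicate 1 of both groups the counts were 5425 and 3786. The fit of all 12 libraries moved the median of all genes by -0.23 and gave 6143 higher and 5532 lower. Whether the replicate numbers pair the libraries is not settled. The deviations of same-numbered libraries correlated at 0.172, 0.182 and 0.0278, and those of differently numbered libraries at -0.187 to 0.0391. GFPpos replicates 1 and 2 correlated best with their own number, and GFPpos replicate 3 with GFPneg replicate 2. With the replicate number as a block, 5441 genes were higher and 4019 lower, and 9352 of the 9990 calls kept their direction. In that fit Csf1r (adjusted p = 0.277), Stat5a (0.0795) and Irf3 (0.067) lost their calls, and Il6 passed as higher (0.0416).

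Of 212 genes chosen for naming and tested, 151 kept their call and direction under every alternative run. Folds of 154 of these that passed and had a GFPneg count moved by over 1.5 times in 40, 35 and 30 cases without GFPneg replicate 1, 2 or 3 and in 5, 3 and 1 without GFPpos replicate 1, 2 or 3. The genes that changed direction had not passed, and the cause was not tested. Ptprc turned to -0.044 with upper-quartile factors, -0.14 with voom, -0.013 without a filter, -0.21 with 12 libraries, -0.40 with the block, -0.020 without matrix genes in the scaling, -0.93 to 0.46 with 1 library left out and -0.75 without both replicates 1. Acan ran from -1.47 to 10.11 with 1 library left out and turned to -0.11 without both replicates 1. Mpo turned to -2.87 with voom, -1.53 with the block, -4.69 to 3.56 with 1 library left out and -3.18 without both. With 1 library left out, Cd79a ran from -0.13 to 3.24, the median of the B and plasma cell list from -0.13 to 3.81, Elane from -2.26 to 3.36 and Col9a2 from -0.26 to 9.58, each lowest without GFPpos replicate 1, and without both replicates 1 they stood at -0.17, -0.17, -0.79 and -0.83. Dll4 turned to -1.09 with voom, -0.37 with the block and -7.42 to 3.66 with 1 library left out. Ldb1 turned to -0.012 with upper-quartile factors and -0.19 with 12 libraries, where it passed as lower (adjusted p = 0.0465), and ran from -0.044 to 0.072 with 1 library left out. Fth1 turned to -0.15 and Ftl1 to -0.054 with 12 libraries. With 1 library left out Fth1 ran from -0.058 to 0.11 and Col9a1 from -0.58 to 9.87. The mast cell list median turned to 1.28 with DESeq2, 1.35 without a filter, 0.36 at 50 counts and 0.086 with 12 libraries, and the Schwann cell list median to -1.01 at 50 counts and -0.0302 with the block. Low counts limit these lists: the T and NK and mast cell lists had 3 tested members each.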
